A study of Homo sapiens with 6 samples.

Results

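The genes described here are 10 regulators of the passage from G1 into S phase: the D-type cyclins CCND1, CCND2 and CCND3, the E-type cyclins CCNE1 and CCNE2, the kinases CDK2, CDK4 and CDK6, the pocket protein gene RB1 and the transcription factor gene E2F1. They were chosen by name, as the rows of the count tables that carry these symbols, and all 10 were found among 19923 genes. The libraries are 6 RNA-seq libraries of Kelly, an established human neuroblastoma cell line with amplified MYCN and a genotype given as WT. Cells were transfected with lipofectamine RNAiMax and either a control siRNA (siControl, 3 libraries) or an siRNA against METTL3 (siMETTL3, 3 libraries) and collected after 72 hours. METTL3 is the catalytic subunit of the enzyme complex that writes N6-methyladenosine into mRNA, and the comparison asks what its depletion does to the transcriptome. Both groups are the same line, the siRNA sequences are not given in the sources used here, and nothing says whether the 3 libraries of a group came from separate cultures. The p-values therefore measure only the spread between these libraries, which may be technical.

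In textbook form, mitogen signals raise D-type cyclins, which bind CDK4 or CDK6 and begin to phosphorylate the retinoblastoma protein encoded by RB1. Phosphorylated RB1 releases E2F transcription factors, which turn on CCNE1, CCNE2, E2F1 itself and the genes of DNA replication, and cyclin E with CDK2 completes the phosphorylation. INK4 proteins inhibit CDK4 and CDK6, and CIP/KIP proteins inhibit CDK2 complexes. In neuroblastoma, the D-cyclin and CDK4/CDK6 arm is known for high activity, and MYCN is known to act on several genes of this pathway.

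Levels are given as CPM, which is the count of a gene per 1e+06 counts of the library after scaling between libraries. Total counts ranged from 15430000 to 21565013 per library, and siControl replicate 3 was the shallowest. On the second principal component it lay apart from siControl replicates 1 and 2 (-16.1 against 15.5 and 6.19). On the first it had the lowest value of a graded series (-29.6 against -15.1 and -20.6). METTL3 itself was lower in every siMETTL3 library, at 32.99, 31.78 and 34.33 CPM against 53.5, 52.8 and 56.2 CPM in siControl, which is 61.0% of control (edgeR FDR 4.68e-06). METTL3 overlaps TOX4 on the opposite strand over 7.9% of its span, and TOX4 counts were 88.2% to 133% of those of METTL3 (log2 ratio -0.20, edgeR FDR 0.0431, with the call lost in 7 of 15 alternatives), so shared reads can enter this value. As for the identity of the cells, all 10 markers of sympathetic neuroblastoma were detected, with a summed level of 6836 to 7207 CPM in siControl and of 9970 to 10501 CPM in siMETTL3. Of these markers 7 were higher, 1 was lower and 2 were not called, beside 18.6% of all tested genes higher and 19.2% lower. TH, the first enzyme of catecholamine synthesis, was at 286% of control and ISL1, a transcription factor of sympathetic neurons, at 44.02% (edgeR FDR 1.89e-07 and 6.06e-08). MYCN made up the largest part of the sum. The 7 markers of fibroblasts, leukocytes, endothelium and epithelium summed to 8.01 to 11.1 CPM in siControl and 11.9 to 12.2 CPM in siMETTL3, with none at 0 in all libraries and 4 of the 7 too low to be tested. Of the 3 tested, COL1A1 was called higher, from 2.96 ± 1.27 to 5.26 ± 0.471 CPM (SD, n = 3). Its log2 ratio was 0.86 (edgeR FDR 0.0200), with the call lost in 4 of 16 alternatives. PECAM1 (-0.95, edgeR FDR 0.143) and EPCAM (0.12, edgeR FDR 0.604) were not called. The part of these shifts in the results was not tested.

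The upstream sequences of E2F1 and CDK4 are shown because E2F1 is a textbook target of E2F factors and CDK4 one of MYC proteins. Both genes fell, whereas MYCN itself rose from 3021 ± 134 to 4638 ± 169 CPM (SD, n = 3; log2 ratio 0.62, edgeR FDR 5.17e-06). RefSeq windows (GRCh38.p14) were found for 6 of the 10 genes, and the 250 bases before each start site were searched on both strands. The E2F-type motif, the first bases of the E2F consensus, was searched in the form TTTCCCG and in the forms with other middle bases, namely TTTCGCG as well as TTTGCCG and finally TTTGGCG, and the E-box bound by MYC proteins as CACGTG, which reads the same on both strands. E2F1 (chr20:33686386-33686635, minus strand) is printed with its E2F-type motifs in capitals, and CDK4 (chr12:57752311-57752560, minus strand) with its E-boxes in capitals.
E2F1: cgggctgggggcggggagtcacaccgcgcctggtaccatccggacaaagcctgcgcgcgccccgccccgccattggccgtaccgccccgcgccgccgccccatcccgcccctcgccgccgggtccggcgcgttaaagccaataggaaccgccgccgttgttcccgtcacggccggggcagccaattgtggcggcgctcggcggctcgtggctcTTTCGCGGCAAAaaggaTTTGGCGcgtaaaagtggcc
CDK4: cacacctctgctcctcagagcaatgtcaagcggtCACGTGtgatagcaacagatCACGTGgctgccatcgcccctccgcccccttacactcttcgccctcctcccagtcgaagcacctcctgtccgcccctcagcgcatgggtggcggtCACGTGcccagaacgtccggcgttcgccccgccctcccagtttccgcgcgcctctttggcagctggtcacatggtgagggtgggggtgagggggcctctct
The E2F1 window holds 3 E2F-type motifs, of which 2 overlap and lie on opposite strands. Their first bases are at -37, -32 and -20 relative to the start site. The CDK4 window holds 3 E-boxes, at -216, -196 and -101. Of all 35116 windows of this length, 7.33% hold at least 1 E2F-type motif and 0.0228% hold at least 3, while 6.34% hold at least 1 E-box and 0.0797% hold at least 3. Neither motif was found in the windows of CCND3, CDK6, RB1 and CCNE1, and the windows of RB1, CDK4 and CCND3 and 1 of those of CDK6 lie inside the gene spans of the count tables. The only RB1 window, 48476200 to 48476449 on the plus strand, belongs to an internal start. The sequence before the start of the RB1 span, at 48303726, was not searched. These matches are letters in a window and show no binding.

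CCND1 was the 1 gene of the 10 that rose after METTL3 depletion, whereas CDK4, CDK2, E2F1, CDK6 and CCNE2 fell. CCND3, CCNE1 and RB1 did not pass the test, and CCND2 was too low to be tested. Of their control levels CCNE2 kept 81.2%, CDK6 79.7%, E2F1 74.4%, CDK2 69.4% and CDK4 65.4%, and CCND1 stood at 142%. A gene was called where the quasi-likelihood test of edgeR, siMETTL3 against siControl, gave a Benjamini-Hochberg adjusted p-value (FDR) under 0.05, the adjustment running over 15311 tested genes. Changes are log2 ratios (log2 fold changes) of siMETTL3 over siControl from that fit. By this rule 6 of the 9 tested genes were called, 1 higher and 5 lower. The background was 37.8% of all tested genes called, 18.6% higher and 19.2% lower. The median log2 ratio of the 9 genes was -0.30, beside -0.0021 over all tested genes. In 6 of the 9 genes the groups did not overlap, which held for 49.9% of all tested genes. In bulk RNA fewer cells of a type or cell cycle phase and less RNA per cell cannot be told apart.

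**Figure D1:**
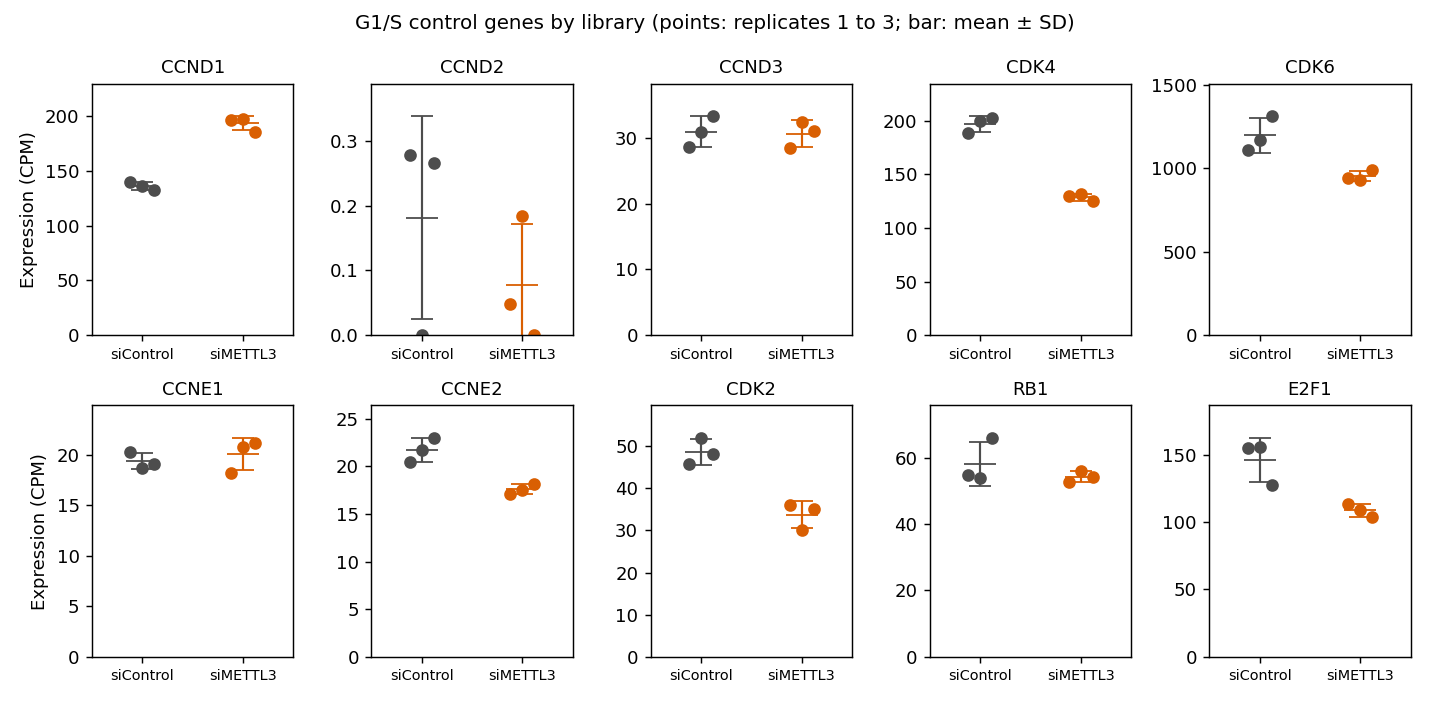
Expression of the 10 genes in CPM (vertical axis, from 0, on a scale of its own for each gene) in the siControl and siMETTL3 libraries; points are replicates 1 to 3 and bars are mean ± SD, ending at 0 where the SD of CCND2 exceeds its mean. All siMETTL3 points of CCND1 lie above the siControl points, those of CDK4, CDK6, CCNE2, CDK2 and E2F1 lie below, and those of CCND3, CCNE1 and RB1 overlap.

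Among the D-type cyclins, which carry mitogen signals to CDK4 and CDK6, CCND1 (cyclin D1, chromosome 11, 69641156 to 69654474, plus strand) measured 139.7, 136.4 and 132.7 CPM in the siControl libraries and 197.0, 197.6 and 186.2 CPM in the siMETTL3 libraries. The groups did not overlap, and the distance between them was several times the spread within either. Its log2 ratio of 0.51 had a standard error (SE) of 0.055 (edgeR FDR 1.16e-05) and lay between 0.40 and 0.53 over its alternative settings. The last 1399 bases of the CCND1 span, 10.5% of it, overlap LTO1 on the opposite strand, and the counting used no strand. LTO1 also rose, with a log2 ratio of 0.60 (edgeR FDR 1.37e-05), and its count was 36.4% to 41.2% of that of CCND1. With all LTO1 counts taken away from CCND1, as if every one were shared, 84.4 ± 0.0810 CPM (SD, n = 3) were left in siControl and 115 ± 4.69 CPM (SD, n = 3) in siMETTL3. That gave a log2 ratio of 0.44 (edgeR FDR 4.86e-05).

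CCND3, which encodes cyclin D3 (chromosome 6, 41934933 to 42050357, minus strand), was measured at 28.6, 30.9 and 33.3 CPM in siControl and at 28.4, 32.5 and 31.0 CPM in siMETTL3. The groups overlapped almost fully, and the log2 ratio of -0.0091 (SE 0.087) did not pass the test (edgeR FDR 0.946). CCND2, which encodes cyclin D2 (chromosome 12, 4273762 to 4305353, plus strand), had 6, 0 and 4 counts in siControl and 1, 4 and 0 counts in siMETTL3. A count of 0 allows up to 3 counts, or 0.150 CPM in siControl replicate 2 and 0.146 CPM in siMETTL3 replicate 3, for counting error only. The gene failed the filter on low counts and no fold is given. Its span lies wholly within AC008012.1, a longer gene of the table with 499 to 735 counts, so nearly all of that gene's counts come from outside CCND2.

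To compare levels between genes, CPM were divided by the exonic length of the canonical transcript. The counts also hold reads from introns, so this scale can overstate genes with long introns, such as RB1 (289277 intronic bases), CDK6 (219435) and CCND3 (109664), beside CCND1 (8558) and CDK4 (5193). CPM per kb of the whole gene span, which has the opposite leaning, and the levels left after subtraction of neighbours' counts were therefore set beside it, both chosen after the data were seen. On this scale CCND1 supplied 67.8% ± 2.21 (SD, n = 3) of the D-type cyclin level in siControl and 75.1% ± 1.47 (SD, n = 3) in siMETTL3, and CCND3 supplied nearly all of the rest. The summed D-type cyclin level was 47.1, 47.5 and 47.8 CPM per kb in siControl and 60.5, 62.7 and 59.2 CPM per kb in siMETTL3. The sums did not overlap between the groups, and no test was made over them. With the union of all annotated exons as length, which is 5761 bases for CCND3 in place of 2026, the CCND1 share was 84.1% and 88.4%. It was 97.4% and 98.2% per kb of the whole span, and 56.6% and 64.2% with all LTO1 counts taken from CCND1. CCND1 was the largest D-type component on each of these scales, and its mean share was higher in siMETTL3 on each. With CCND2 this low, a change of length scales the ratio of CCND1 to CCND3 alike in all libraries. Only the subtraction could therefore have changed the direction of the share.

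The kinases that bind D-type cyclins both fell. CDK4 (chromosome 12, 57747727 to 57756013, minus strand) was at 188.6, 199.5 and 202.4 CPM in siControl and at 129.6, 131.5 and 125.2 CPM in siMETTL3. No siMETTL3 library came near the lowest siControl library, and CDK4 had the smallest FDR of the 10 genes (log2 ratio -0.61, SE 0.055, edgeR FDR 2.56e-06). The CDK4 span overlaps TSPAN31 over 30.1% and MARCHF9 over 10.99% of its length, both on the opposite strand. TSPAN31 fell (log2 ratio -0.50, edgeR FDR 1.71e-05) and so did MARCHF9 (-0.43, edgeR FDR 0.0106), the latter not past the threshold without siControl replicate 2 (edgeR FDR 0.0596) or siMETTL3 replicate 2 (edgeR FDR 0.0519). Taking all counts of both neighbours away left 72.7 ± 4.64 CPM (SD, n = 3) in siControl and 40.6 ± 3.53 CPM (SD, n = 3) in siMETTL3, a log2 ratio of -0.84 (edgeR FDR 3.01e-06).

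CDK6 (chromosome 7, 92604921 to 92836594, minus strand) was by far the most counted of the 10 genes and ranked between 15 and 33 among all genes by raw count. It measured 1112, 1167 and 1311 CPM in siControl and 941, 931 and 989 CPM in siMETTL3. All siMETTL3 libraries were lower than all siControl libraries, with siControl replicate 3 the highest of the 6. Its log2 ratio of -0.33 (SE 0.067, edgeR FDR 0.00163) became -0.26 (edgeR FDR 4.12e-05) without siControl replicate 3. The gene spans 231674 bases, of which 12239 are annotated as exonic, so reads of unspliced RNA can enter its count. With an offset for intron length the log2 ratio was -0.43 (edgeR FDR 3.10e-05), and no other gene of the table overlaps CDK6.

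Per kb of canonical transcript, CDK4 and CDK6 stood at 105.5 ± 3.88 and 102.6 ± 8.78 CPM per kb (SD, n = 3) in siControl, a difference smaller than the spread of CDK6. In siMETTL3 they stood at 69.0 ± 1.73 and 81.7 ± 2.65 CPM per kb (SD, n = 3), with every library of CDK6 above every library of CDK4. The ratio of CDK4 to CDK6 was 1.06, 1.07 and 0.966 in siControl and 0.862, 0.883 and 0.792 in siMETTL3, so it was lower in all siMETTL3 libraries. With the union of exons as length CDK6 was the higher of the pair in both groups, at mean ratios of 0.653 and 0.535. Which kinase was the higher is not fixed by these data: with the counts of TSPAN31 and MARCHF9 taken away, CDK4 was left with 39.0 ± 2.49 CPM per kb (SD, n = 3) in siControl and mean ratios of 0.381 and 0.267. Per kb of the whole span the mean ratios were 4.61 and 3.78. A change of length multiplies the ratio by the same number in all libraries, so the length scales could not differ in its direction. The subtraction could have, and there too every siMETTL3 library had a lower ratio than every siControl library.

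**Figure D2:**
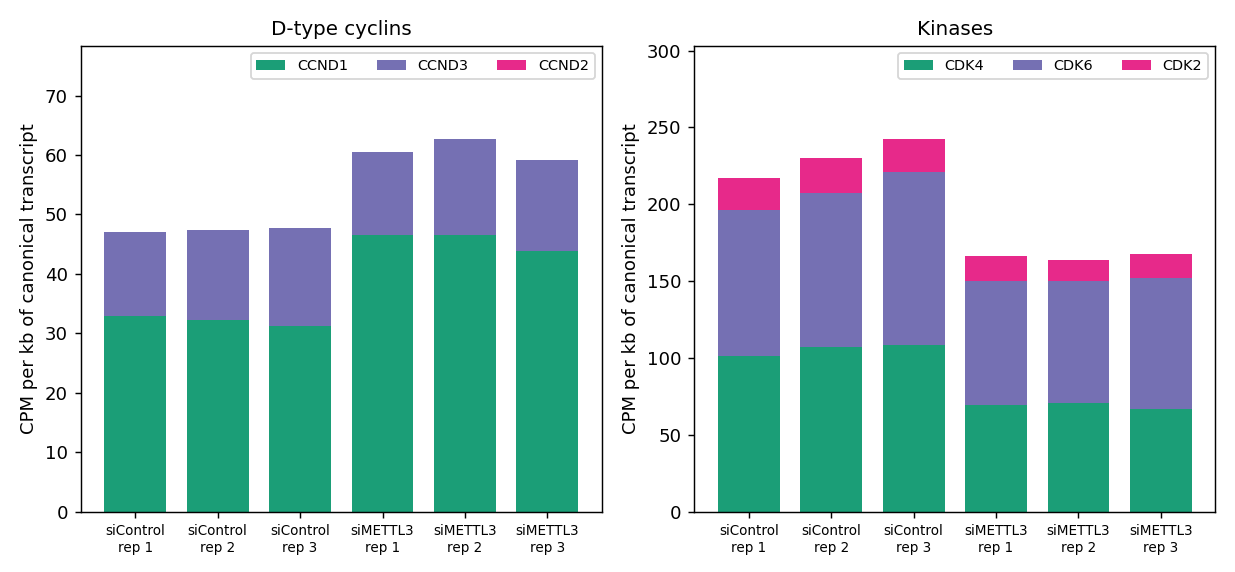
Stacked levels in CPM per kb of canonical transcript (vertical axis, from 0) of the D-type cyclins (left) and of the G1 kinases (right) in each of the 6 libraries. The D-type cyclin bars are higher in the siMETTL3 libraries (59.2 to 62.7 against 47.1 to 47.8) and the kinase bars are lower (164 to 167 against 217 to 242); CCND2 is too low to be visible.

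Of the E-type cyclins, partners of CDK2 and textbook targets of E2F, CCNE2 fell and CCNE1 did not pass the test. CCNE1 (cyclin E1, chromosome 19, 29811991 to 29824312, plus strand) was at 20.3, 18.7 and 19.1 CPM in siControl and at 18.2, 20.7 and 21.2 CPM in siMETTL3. Its lowest and its highest library both belonged to siMETTL3, and the log2 ratio of 0.047 (SE 0.096) did not pass the test (edgeR FDR 0.737). CCNE2 (cyclin E2, chromosome 8, 94879770 to 94896678, minus strand) measured 20.4, 21.7 and 23.0 CPM in siControl and 17.1, 17.5 and 18.2 CPM in siMETTL3. These groups did not overlap, and the log2 ratio of -0.30 had an SE of 0.092 (edgeR FDR 0.0193). The edgeR FDR was 0.0567 without siControl replicate 2, 0.0766 without siMETTL3 replicate 1 and 0.0598 without siMETTL3 replicate 2. With the offset for GC content and length the log2 ratio of CCNE2 was -0.14 (edgeR FDR 0.228), and its alternatives spanned FDR values of 0.0115 to 0.228. CCNE2 overlaps INTS8 and NDUFAF6 on the opposite strand, each with more counts than CCNE2 itself. INTS8 fell by 0.30 on the log2 scale (edgeR FDR 0.00569), and NDUFAF6 had a log2 ratio of -0.097 (edgeR FDR 0.166). Whether the 2 E-type cyclins differed in their response was not tested.

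CDK2 (chromosome 12, 55966781 to 55972789, plus strand), the kinase that cyclin E activates, was measured at 45.6, 51.9 and 48.2 CPM in siControl and at 36.1, 30.1 and 35.0 CPM in siMETTL3. The highest siMETTL3 library stayed below the lowest siControl library, with a log2 ratio of -0.53 and an SE of 0.085 (edgeR FDR 0.000297). The whole CDK2 span lies inside that of PMEL, a melanosome gene on the opposite strand, and a read over both was counted for both. PMEL counts exceeded CDK2 counts by only 8 to 52 in a library, so the values listed for PMEL (log2 ratio -0.48) are nearly those of CDK2. The PMEL span has 19213 bases and that of CDK2 6009, so the part of PMEL outside CDK2 held only those 8 to 52 counts. The counting used no strand, and which of the 2 genes the shared reads came from was not tested.

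**Figure D3:**
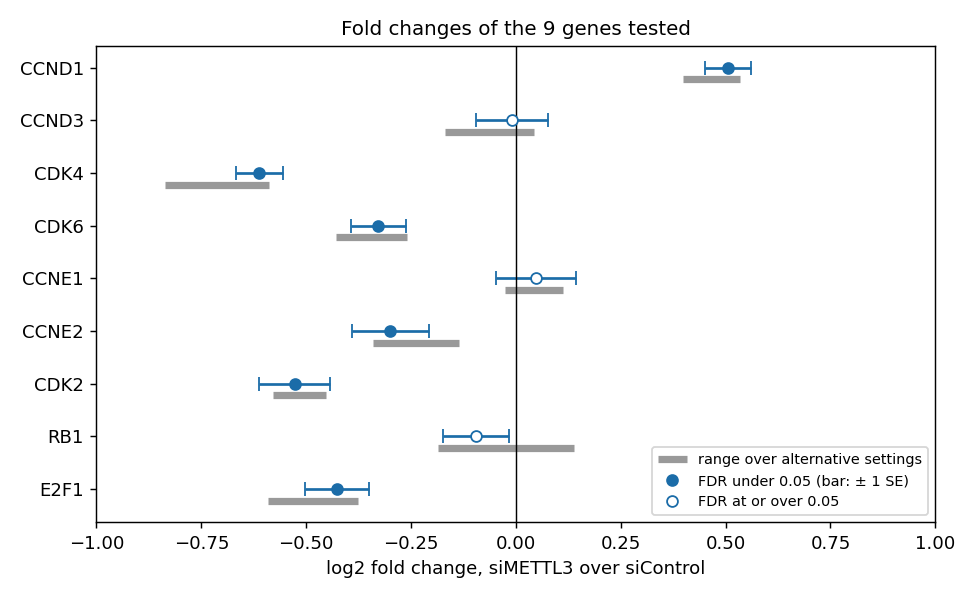
Log2 ratios (horizontal axis, siMETTL3 over siControl) of the 9 tested genes; points are estimates with bars of ± 1 SE, filled where the edgeR FDR was under 0.05, and grey bars show the range over all alternative settings. CCND1 lies to the right of 0 (0.51) and CDK4 farthest to the left (-0.61), and the grey bars of CCND3, CCNE1 and RB1 cross 0.

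RB1 (chromosome 13, 48303726 to 48599436, plus strand), the brake on E2F factors, measured 54.7, 53.9 and 65.8 CPM in siControl and 52.5, 56.0 and 54.2 CPM in siMETTL3. The groups overlapped, and siControl replicate 3 stood above the other 5 libraries. Its log2 ratio of -0.095 (SE 0.079) did not pass the test (edgeR FDR 0.374), and it was -0.0019 without that library. LPAR6 and RCBTB2, on the opposite strand, lie wholly inside the RB1 span and cover 18.65% and 14.98% of it. Every read counted for them was therefore counted for RB1 as well. LPAR6 counts were 9.61% to 15.5% of those of RB1, and RCBTB2 counts 26.0% to 38.2%. LPAR6 had a log2 ratio of -0.46 (edgeR FDR 0.0240) and RCBTB2 of -0.36 (edgeR FDR 0.0354), and both lost the call in some alternatives. LPAR6 lost it with the GC and length offset (edgeR FDR 0.139) and without siControl replicate 2, siMETTL3 replicate 1 or 3 (edgeR FDR 0.108, 0.0797 and 0.0864). RCBTB2 lost it with total counts as scaling (edgeR FDR 0.0508) and without siMETTL3 replicate 1 or 3 (edgeR FDR 0.168 and 0.127). Taking all counts of both from RB1 left 30.0 ± 5.09 CPM (SD, n = 3) in siControl and 32.8 ± 1.58 CPM (SD, n = 3) in siMETTL3. This turned the sign of its log2 ratio to 0.14 (edgeR FDR 0.332). With an offset for intron length RB1 crossed the FDR threshold (-0.19, edgeR FDR 0.0441), where its alternatives spanned FDR values of 0.0441 to 0.988.

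E2F1 (chromosome 20, 33675477 to 33686385, minus strand), the factor whose promoter is printed above with its E2F-type motifs, measured 154.9, 155.7 and 127.1 CPM in siControl. In siMETTL3 it measured 113.6, 108.8 and 103.7 CPM. All siMETTL3 libraries were lower, and siControl replicate 3 was the nearest to them. Its log2 ratio of -0.43 had an SE of 0.076 (edgeR FDR 0.000706). It was -0.52 without siControl replicate 3, and -0.59 (edgeR FDR 1.75e-07) with the offset for GC content and length. No other gene of the table overlaps E2F1. Per kb of canonical transcript, E2F1 was above CCND1 in siControl (54.2 ± 6.05 against 32.2 ± 0.821 CPM per kb, SD, n = 3). In siMETTL3 it was below CCND1 (40.4 ± 1.83 against 45.7 ± 1.52 CPM per kb, SD, n = 3), although with the union of exons as length the 2 means were 40.4 and 40.7, and with LTO1 counts taken away CCND1 was at 27.1 CPM per kb, below E2F1.

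In siControl the order of the levels per kb was CDK4, CDK6, E2F1, CCND1, CDK2, CCND3, RB1, CCNE1, CCNE2 and CCND2. The means ran from 105.5 CPM per kb in CDK4 over 21.7 in CDK2, 15.3 in CCND3, 12.2 in RB1 and 9.92 in CCNE1 to 8.11 in CCNE2 and 0.0279 in CCND2. Only CDK4 and CDK6 had overlapping libraries among neighbours in that order. The order depends on the length and on shared reads. With the union of exons CDK6 came first and CCND3, at 5.37 CPM per kb, lay below RB1 and CCNE1. With neighbours' counts taken away CDK4 (39.0 CPM per kb) lay below CDK6 and E2F1, CCND1 (19.9) below CDK2, and RB1 (6.29) below CCNE2. The subtraction was made for CCND1, CDK4 and RB1 only. CDK2 and CCNE2 kept the reads they share with neighbours, whose counts exceed their own. The places of CCND1 below CDK2 and of RB1 below CCNE2 therefore set unlike values side by side. Per kb of the whole span CDK4 (23.8) was followed by E2F1 (13.4), CCND1 (10.2), CDK2 (8.08) and only then CDK6 (5.17). In siMETTL3 the order began with CDK6, CDK4, CCND1 and E2F1, and CCND3 and CDK2, at 14.03 to 16.03 and 13.43 to 16.10 CPM per kb, overlapped. RB1 followed at 11.4, CCNE1 at 10.3 and CCNE2 at 6.58 CPM per kb.

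Across the 6 libraries the genes most like CCND1 in log2 CPM were ASXL1, COL5A1 and TRIO, with Pearson's r of 0.9993, 0.9991 and 0.9991. The 6 points share the 2 groups, and 1101 of 15309 compared genes had an r over 0.95, so this likeness is shared by many genes.

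Of the 6 tested genes for inhibitors of these kinases, 3 fell, 1 rose and 2 were not called, beside 19.2% of all tested genes lower and 18.6% higher. Of the INK4 genes, whose proteins block CDK4 and CDK6, 1 of 3 tested fell: CDKN2C (p18) went from 36.7 ± 1.33 to 26.3 ± 2.24 CPM (SD, n = 3; log2 ratio -0.48, edgeR FDR 0.000571). CDKN2A (p16 and ARF) had 3.66, 5.21 and 6.50 CPM in siControl and 3.40, 3.67 and 3.51 CPM in siMETTL3, and was not called (log2 ratio -0.52, edgeR FDR 0.0694). Without siControl replicate 1 it was at -0.72 and passed the threshold (edgeR FDR 0.0081), as it did with both offsets (edgeR FDR 0.0443 for introns and 0.0336 for GC content and length). CDKN2D was not called at about 4 CPM (log2 ratio -0.16, edgeR FDR 0.543), and CDKN2B, with 2 to 14 counts a library, was not tested.

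All 3 CIP/KIP genes, whose products inhibit CDK2 complexes, were called, 2 lower and 1 higher, beside 37.8% of all tested genes called. CDKN1A (p21, an effector of p53) kept 49.4% of its control level, with a log2 ratio of -1.02 (edgeR FDR 1.66e-07). CDKN1B (p27) went from 74.0 ± 0.777 to 65.3 ± 1.99 CPM (SD, n = 3; log2 ratio -0.18, edgeR FDR 0.0257). With an offset for intron length CDKN1B was at 0.0023 (edgeR FDR 0.982), with total counts as scaling its FDR was 0.0511, and its FDR was 0.0921 without siControl replicate 2 and 0.125, 0.0545 and 0.0559 without siMETTL3 replicates 1, 2 and 3. CDKN1C (p57) rose from 1.02, 1.10 and 1.33 CPM to 2.62, 5.24 and 4.19 CPM, a log2 ratio of 1.82 with an SE of 0.29 (edgeR FDR 0.000312). Its counts were low, at 20 to 22 in siControl and 54 to 114 in siMETTL3, and it remained past the threshold in all its alternatives.

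The other pocket proteins, E2F factors and DP partners moved both ways. Of 11 genes, 3 were higher, 3 were lower and 5 were not called, with a median log2 ratio of 0.0020; over all tested genes 18.6% were higher and 19.2% lower. E2F3, an activator of S phase genes, and E2F6, a repressor, rose from 145 ± 10.2 to 178 ± 5.88 CPM and from 53.5 ± 1.34 to 65.5 ± 2.20 CPM (SD, n = 3; log2 ratios 0.30 and 0.29, edgeR FDR 0.00206 and 0.00219). TFDP1, the DNA-binding partner of E2F factors, rose by a log2 ratio of 0.24 (edgeR FDR 0.00499), which was 0.13 (edgeR FDR 0.0759) with an offset for intron length. E2F7, an atypical repressor and itself a target of E2F factors, fell from 42.5 ± 1.75 to 30.8 ± 2.28 CPM (SD, n = 3; log2 ratio -0.46, edgeR FDR 0.000459). The pocket protein genes RBL1 and RBL2 were not called, with log2 ratios of 0.0020 and 0.11.

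Of 8 genes that set the activating and inhibitory phosphorylation of CDKs, 2 were higher and 3 were lower (median log2 ratio 0.0073), beside 18.6% and 19.2% of all tested genes. CDC25A, the phosphatase that activates CDK2, fell from 105 ± 5.65 to 74.9 ± 0.424 CPM (SD, n = 3; log2 ratio -0.48, edgeR FDR 3.80e-05). WEE1, the kinase that opposes it, fell as well (-0.30, edgeR FDR 0.00464). In the CDK-activating kinase, the cyclin CCNH fell (log2 ratio -0.47, edgeR FDR 0.000297), whereas the kinase CDK7 (0.38, edgeR FDR 0.00618) and the assembly factor MNAT1 (0.24, edgeR FDR 0.00443) rose. With an offset for intron length MNAT1 was at 0.14 (edgeR FDR 0.0555), and the CCNH span overlaps RASA1.

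Among 12 parts of ubiquitin ligases that act on G1 cyclins, on p27 or on the anaphase-promoting complex, 2 rose, 2 fell and 8 were not called (median log2 ratio 0.054), where 37.8% of all tested genes were called. SKP2, which directs p27 to destruction, fell from 212 ± 5.89 to 137 ± 0.969 CPM (SD, n = 3; log2 ratio -0.63, edgeR FDR 1.33e-06). FBXO5, an inhibitor of the anaphase-promoting complex, fell by 0.26 (edgeR FDR 0.0131), and FZR1, an activator of it whose span overlaps MFSD12, rose by 0.35 on the log2 scale (edgeR FDR 0.00889). CUL1, a scaffold of SKP2 and FBXW7 ligases, rose by 0.14 (edgeR FDR 0.0426). FBXO5 was not called without siControl replicate 2 (edgeR FDR 0.0737), without siMETTL3 replicate 1 (edgeR FDR 0.0815) or with the GC and length offset (edgeR FDR 0.148). FZR1 was not called without siMETTL3 replicate 2 (edgeR FDR 0.0608) or with the GC and length offset (edgeR FDR 0.0911). CUL1 lost its call in 8 of its 16 alternatives, among them 5 of the fits that left out 1 library, with an FDR of 0.00861 to 0.741 over all of them. AMBRA1 and FBXW7, which direct D-type cyclins and cyclin E to destruction, had log2 ratios of -0.058 and -0.0018 and were not called. AMBRA1 was called lower with the GC and length offset (-0.28, edgeR FDR 0.000242) and with the intron offset (-0.17, edgeR FDR 0.0167).

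**Figure D4:**
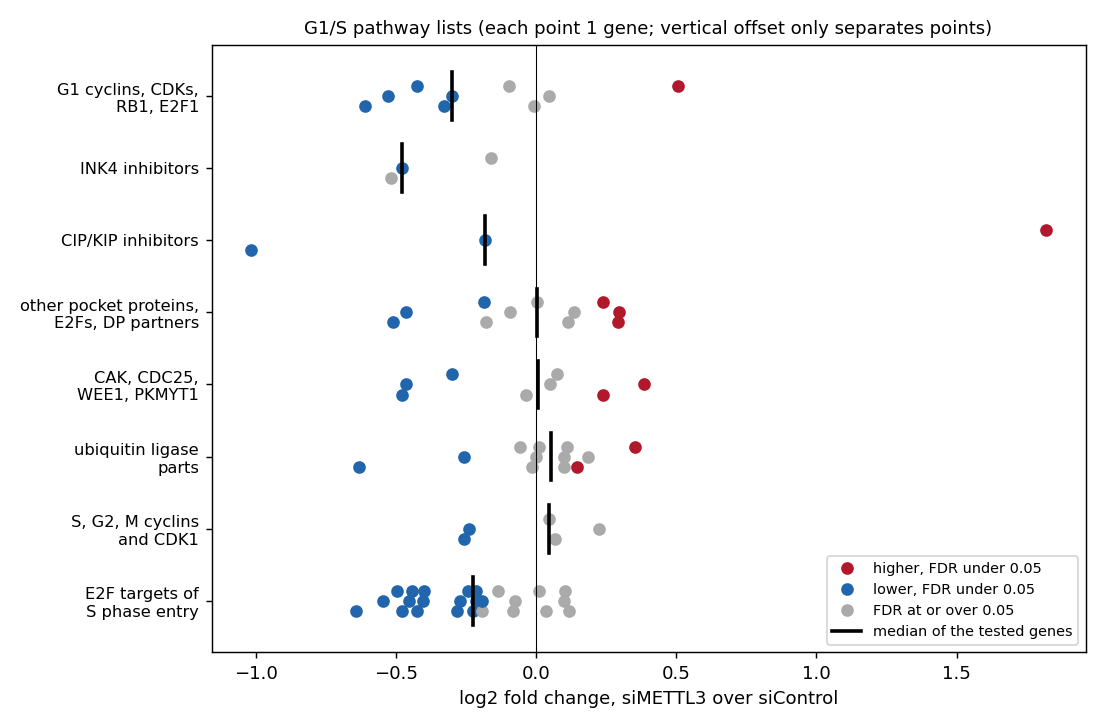
Log2 ratios (horizontal axis, siMETTL3 over siControl) of the tested genes of the 10 G1/S genes and of 7 pathway lists; each point is 1 gene, red and blue points had an edgeR FDR under 0.05 (higher and lower), grey points did not, and black lines are list medians. Points of the E2F target list lie mostly left of 0 (16 of 25 lower, 0 higher), and CDKN1C lies farthest to the right (1.82).

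Downstream, 16 of 25 E2F target genes of S phase entry fell and 0 rose, with 9 not called, a median log2 ratio of -0.23 and 20 of 25 values below 0. Over all tested genes 19.2% were lower, and 50.3% of the log2 ratios were below 0. The count of lower genes was 12 without siControl replicate 2, 11 without siMETTL3 replicate 1, 14 without either of the other siMETTL3 libraries, and 16 without siControl replicate 1 or 3, where 1 gene of the list rose. With the GC and length offset 19 were lower and 1 higher, and with total counts as scaling 16 were lower and 1 higher. The 4 with the smallest FDR were PCNA, the sliding clamp of DNA polymerases, and MCM4, MCM7 and MCM3 of the replicative helicase. The MCM7 span overlaps AP4M1. PCNA kept 64.1% of its control level, MCM4 68.5%, MCM7 71.0% and MCM3 73.1%, the last from 366 ± 4.04 to 267 ± 2.33 CPM (SD, n = 3; log2 ratio -0.45, edgeR FDR 1.77e-05). PCNA and MCM genes were already known to be lower in these libraries when the list was written, so its count is no independent evidence. Promoter windows were found for 22 of the 25, and 11 of these hold at least 1 E2F-type motif in a window. That count is per gene over all its windows, whereas the 7.33% given above is a share of windows. No share per gene over all genes was computed, and the genes were listed as E2F targets beforehand.

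Of 5 tested genes for cyclins of later phases and CDK1, 2 fell and 3 were not called, with a median log2 ratio of 0.045, beside 37.8% of all tested genes called and 19.2% lower. CCNA2, the cyclin A gene of S phase, fell by 0.26 (edgeR FDR 0.00950) and CDK1, the mitotic kinase, fell by 0.24 on the log2 scale (edgeR FDR 0.0212). CCNA2 was not called without siControl replicate 2 (edgeR FDR 0.0541). CDK1 was not called in 3 of the fits that left out a library (edgeR FDR 0.0699 without siControl replicate 2, 0.0578 without siMETTL3 replicate 1, 0.112 without siMETTL3 replicate 2), and had a log2 ratio of -0.069 (edgeR FDR 0.322) with the GC and length offset. The mitotic cyclin genes CCNB1 and CCNB2 had log2 ratios of 0.067 and 0.045 and were not called. CCNA1 had at most 20 counts in a library and was not tested.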

How the data were processed

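The authors deposited raw counts, 1 table of 19923 protein-coding genes for each library. Per the file headers, the authors counted with featureCounts 1.5.3 on a GENCODE release 33 annotation, over whole genes with introns, counting a read for every gene it overlaps and without a strand option. Counts of overlapping genes therefore share reads. The submitters' processing notes name FastQC 0.11.5, Trimmomatic 0.36, HISAT2 2.1.0 and GRCh38. Per the labels' protocols, poly(A) RNA was selected. Gene coordinates were copied from the tables (GRCh38).

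Counts were filtered with filterByExpr (15311 genes kept), scaled by TMM and tested with edgeR 4.0.16 (R 4.3.3; glmQLFit with robust estimates, glmQLFTest, 2 groups of 3, no covariate). The SE was taken as |log2 ratio|/√F. Tested on simulated data for siMETTL3 against siControl (10 draws, 15077 to 15110 genes), the fit called 77.2% of genes changed 1.5-fold and 88.9% of those changed 2-fold, and 7.03% of calls were false. Transcript lengths, GC content and introns came from GENCODE release 44, matched by symbol for 19032 genes. The members and lists were chosen with earlier results of these data known. Named genes were the 10 members, METTL3, overlapping genes, all CDK inhibitors, up to 4 genes per other list with the smallest FDR under 0.05, and the 3 genes most like CCND1; other genes named were chosen after their values were seen. Alternatives were 2 scalings, 2 filters, DESeq2 1.42.0, limma-voom (limma 3.58.1), leaving out each library, a replicate block, genes without overlaps, and 2 offsets (intron length; GC content with transcript length). Subtraction of overlapping genes' counts, made for CCND1, CDK4 and RB1 only, and levels per kb of the whole gene span were added after the data were seen.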

Additional observations from a re-analysis of the deposited data

How the results depend on the processing

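Of the 10 genes, CCND1, CDK2, CDK4, CDK6 and E2F1 kept their direction and their side of the threshold in every alternative run for them. The run on genes without overlaps did not hold CCND1, CDK2 or CDK4. The subtraction of neighbours' counts was not made for CDK2, so no alternative dealt with the reads it shares with PMEL. CCNE2 was no longer past the threshold with the GC and length offset (log2 ratio -0.14, FDR 0.228), and RB1 passed it with the intron offset (-0.19, FDR 0.0441). RB1 changed sign when its neighbours' counts were subtracted (0.14, FDR 0.332), CCNE1 with the GC and length offset (-0.026, FDR 0.848) and CCND3 with total counts (0.014, FDR 0.917); none of these was past the threshold, and the cause was not tested. With 1 library left out at a time the values ran from 0.49 to 0.53 for CCND1, -0.064 to 0.043 for CCND3, 0.0063 to 0.11 for CCNE1, -0.34 to -0.26 for CCNE2, -0.58 to -0.45 for CDK2, -0.64 to -0.59 for CDK4, -0.38 to -0.26 for CDK6, -0.15 to -0.0019 for RB1 and -0.52 to -0.38 for E2F1. CCND3 turned positive without siControl replicate 3 or siMETTL3 replicate 1. On genes without overlaps 1852 genes were higher and 1897 lower, against 2849 and 2937, and fewer genes were tested there. Total counts as scaling moved the median of all genes to 0.021. Same-numbered libraries correlated weakly in their deviations (0.0401, 0.0494 and 0.0671), though each value lay above those for different numbers (-0.0642 to 0.0263). Whether the numbers mark pairs is not stated and was not tested, and the main fit used no pairing. With the replicate block 6166 genes were called against 5786, CDK4 stayed at -0.61 and no call among the 9 was altered.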
